A study of Mus musculus with 20 samples.

Results

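Genes of the ubiquitin-specific proteases were compared between day 10 mouse neurons given NMDA and their controls. The genes were chosen by symbol, as every entry of the RNA table named Usp followed by a number and at most 1 lower-case letter, which gave 50 of 21937 gene symbols. The family was put forward with the results of this same comparison of NMDA with control in view. The counts and changes of its members are therefore a description, and the adjusted p-values, which were set over all tested genes, serve only to say which members the text calls fallen. The series holds 20 samples in 10 groups, with FAIRE-seq and H3K27ac profiles of progenitors and of neurons at day 1 and day 10, and RNA-seq and H3K27ac profiles after NMDA. Only the 4 RNA libraries are used here. They came from neurons differentiated in culture (strain label 159.2) and kept to day 10, of which 2 libraries were from cells that had received DMSO alone for 6 h and 2 from cells that had received 200 µM NMDA, which opens the glutamate receptors named after it, for 6 h. All cultures were washed in the same balanced salt solution before and after. The libraries held between 15008112 and 20149813 reads in genes. Whether the 2 libraries of a group are separate cultures is not said in the labels, and the spread between them may be technical.

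Ubiquitin is a small protein that cells attach to other proteins through a relay of an activating enzyme (E1), a conjugating enzyme (E2) and a ligase (E3), often as chains that mark a protein for the proteasome. Deubiquitinases cut ubiquitin off again, and the ubiquitin-specific proteases, cysteine proteases that share 1 catalytic fold, are their largest family. Single members are known for their targets, among them histones, p53 and its ligase Mdm2, DNA repair proteins, endosomes, mitochondria and the proteasome. In neurons, ubiquitin turnover takes part in the remodelling of synapses after activity.

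Promoter sequences were looked at because many of the members moved in 1 direction. RefSeq promoter sequences of the GRCm38.p6 assembly, taken as the 250 bases before the annotated start, were on hand for 38 of the 50 members, of which 17 fell, 18 were tested without a call and the rest were not tested. The sequences below, all 5′ to 3′ on the strand of the gene, belong to the 4 largest falls with a promoter in that set and to the 2 members without a call whose changes lay closest to 0. Capitals mark GGGCGG (the GC box of SP and KLF factors), CCGGAAG (an ETS site) and TGACG (the shorter core of the cyclic AMP response element, CRE), each on either strand.
Usp27x, chrX:7375831-7376080, minus strand: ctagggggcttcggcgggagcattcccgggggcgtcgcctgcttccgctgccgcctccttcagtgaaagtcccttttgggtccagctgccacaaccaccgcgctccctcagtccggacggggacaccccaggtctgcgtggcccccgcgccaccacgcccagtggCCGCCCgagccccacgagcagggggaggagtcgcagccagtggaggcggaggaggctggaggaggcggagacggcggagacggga
Usp36, chr11:118290245-118290494, minus strand: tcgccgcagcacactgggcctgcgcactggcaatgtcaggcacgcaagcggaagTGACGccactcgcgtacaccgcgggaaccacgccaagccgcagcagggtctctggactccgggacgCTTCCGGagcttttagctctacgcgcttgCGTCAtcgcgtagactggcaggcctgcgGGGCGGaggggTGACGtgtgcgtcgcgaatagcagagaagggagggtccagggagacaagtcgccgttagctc
Usp30, chr5:114100083-114100332, plus strand: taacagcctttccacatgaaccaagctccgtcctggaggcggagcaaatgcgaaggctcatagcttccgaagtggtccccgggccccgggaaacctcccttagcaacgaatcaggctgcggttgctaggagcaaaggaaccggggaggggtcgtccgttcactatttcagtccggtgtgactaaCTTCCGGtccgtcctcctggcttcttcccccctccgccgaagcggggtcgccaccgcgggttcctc
Usp34, chr11:23306645-23306894, plus strand: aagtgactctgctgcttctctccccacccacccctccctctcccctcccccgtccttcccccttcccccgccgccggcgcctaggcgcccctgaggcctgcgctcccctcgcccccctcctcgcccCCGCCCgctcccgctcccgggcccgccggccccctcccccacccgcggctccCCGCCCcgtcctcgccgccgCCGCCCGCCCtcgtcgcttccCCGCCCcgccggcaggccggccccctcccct
Usp8, chr2:126707078-126707327, plus strand: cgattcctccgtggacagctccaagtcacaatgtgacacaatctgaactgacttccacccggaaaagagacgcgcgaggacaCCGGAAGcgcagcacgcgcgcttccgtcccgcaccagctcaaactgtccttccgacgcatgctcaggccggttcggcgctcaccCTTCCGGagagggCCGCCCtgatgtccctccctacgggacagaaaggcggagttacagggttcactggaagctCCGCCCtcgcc
Usp13, chr3:32817376-32817625, plus strand: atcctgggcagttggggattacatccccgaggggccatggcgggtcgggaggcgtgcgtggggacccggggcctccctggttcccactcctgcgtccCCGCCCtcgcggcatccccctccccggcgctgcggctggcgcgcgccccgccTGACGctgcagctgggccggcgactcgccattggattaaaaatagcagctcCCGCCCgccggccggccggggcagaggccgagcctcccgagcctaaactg

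The GC box GGGCGG was found on either strand in 25 of the 38 member promoters (65.8%), against 57.2% of the 12599 promoters of tested genes and 32.7% of all 32851 promoters of this length. Among members that fell it was in 11 of 17, and among those without a call in 14 of 18. CCGGAAG was in 7 of 38 (18.4%, against 12.1% of tested genes and 6.9% of all), 4 of them among the fallen and 3 among the uncalled. The CRE core TGACG was in 9 (23.7%, against 25.7% of tested genes and 17.8% of all), split 4 and 5, while the full CRE TGACGTCA, which contains that core, was in 0 of 38 (2.5% of tested genes and 1.5% of all). For the AP-1 site TGANTCA there were 3 (7.9%, against 4.3% of tested genes and 6.7% of all), with 1 fallen and 1 uncalled member. The E-box CACGTG was in 3 promoters (7.9%, against 8.2% of tested genes and 6.0% of all), those of Usp4, Usp16 and Usp31, which all fell. CCAAT was in 9 (23.7%, against 35.2% of tested genes and 33.8% of all), in 2 fallen and 5 uncalled members, TATAAA in 2 (5.3%, against 6.5% of tested genes and 12.4% of all) and the NRF1 core CGCATGCG in 1 (2.6%, against 2.9% of tested genes and 1.5% of all). The median number of CG dinucleotides per promoter was 25.0 for the fallen and 23.5 for the uncalled members, with a range from 2 to 55 over all 38, against medians of 15.0 for tested genes and 6.0 for all promoters. A match is a description of the letters in this window, not a site in use.

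The RNA of the Usp family was lower after NMDA in most members. Levels are normalised read counts, the authors' values scaled for depth and not for gene length, so levels are not compared between genes. Where 2 pairs of levels follow each other, the control libraries come first and the NMDA libraries second, each with replicate 1 before replicate 2. Changes are differences of log2(value + 1), NMDA minus control, with their standard error (SE) and n = 2 libraries in each group. A member was tested where its mean over the 4 libraries was at least 10, which left 46 members, and fallen means a limma adjusted p under 0.05. Of the 46, 23 fell (50%, against 21.5% of the 13888 genes tested) and 0 rose (20.5% of all tested genes rose). At an unadjusted p under 0.05 limma gave 28 falls and 1 rise, and edgeR and DESeq2 likewise gave 0 rises on their adjusted p, with 1 and 0 at an unadjusted p under 0.05. Both NMDA libraries lay under both controls in 33 members (background 37.8%) and over both in 2, Usp2 and Usp46 (background 36.6%), and the groups overlapped in 11. The median log2 change of the 46 was -0.27, against -0.0055 over all tested genes. The median of the members was -0.25 or -0.31 when control replicate 1 or 2 was left out, and -0.32 or -0.28 when NMDA replicate 1 or 2 was. Nothing is read from these shares about the family, since it was put forward with them in view.

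The falls were moderate in size. No member fell by 2-fold, and 209 of the 13888 tested genes did. That share is so small that 0 among 46 members does not set the family apart. Summed over all 50 members, the normalised counts were 94758 and 90871 in the control libraries and 71802 and 67538 after NMDA. Without Usp22, which had the most counts of any member, the sums were 75185 and 72048 against 58008 and 55445. Falls were more frequent among members with many reads. At a mean of 1000 normalised counts or more, a limit chosen after the values were seen, 18 of 22 members fell (81.8%), and under it 5 of 24 did (20.8%). Over all tested genes the falls were 34.4% of the 4262 genes above that limit and 15.7% of those under it. The difference between members above and under the limit was not tested.

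**Figure D1:**
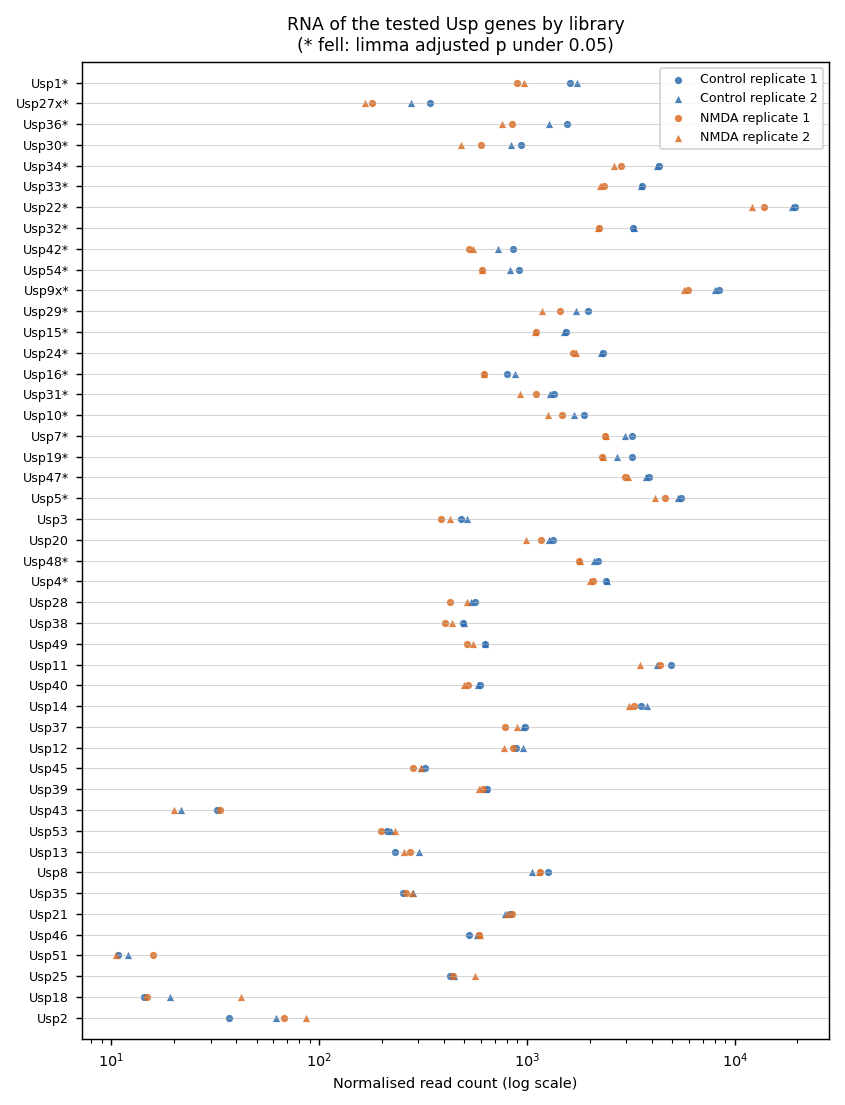
Normalised read counts (log axis) of the 46 tested Usp genes in each of the 4 RNA libraries, ordered by log2 change; circles and triangles are replicates 1 and 2, blue is control and orange is NMDA, and an asterisk marks the 23 members that fell. In 33 members both orange points lie left of both blue points, and in 2 they lie right of both.

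The falls depended on the control libraries (the plot of adjusted p by left-out library). Without control replicate 1 the number of falls was 6 and without control replicate 2 it was 14, against 26 and 22 when NMDA replicate 1 or 2 was left out. Over all tested genes the falls dropped likewise, from 2979 to 915 and 1391 when 1 of the controls was left out, a fit in which the remaining control library is taken to vary like the NMDA group. Usp1, Usp30, Usp32, Usp33, Usp34 and Usp36 kept their call under each left-out library, Usp30 by a narrow margin (limma adjusted p = 0.0498 without control replicate 1). For the other 17 the adjusted p without control replicate 1 is given with each role. The counts of falls by role stand beside the same background of 21.5%.

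**Figure D2:**
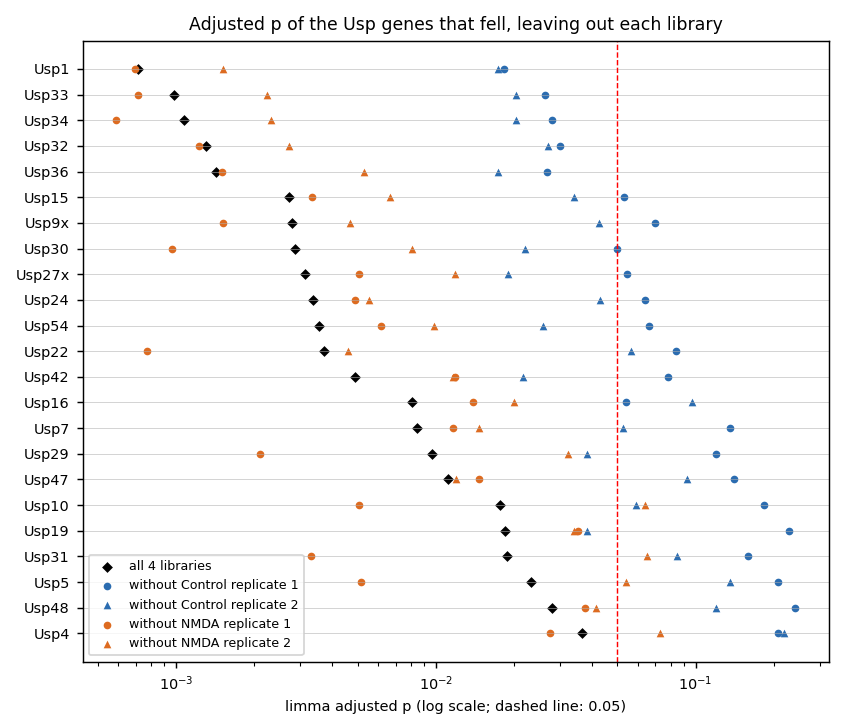
Limma adjusted p (log axis) of the 23 Usp genes that fell, with all 4 libraries (black diamonds) and with 1 library left out (blue for a control, orange for an NMDA library; circles replicate 1, triangles replicate 2); the dashed line is 0.05. Without control replicate 1 (blue circles), 6 genes stay left of the line, Usp30 at 0.0498.

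Markers of other cells moved in the same libraries, and their part in the Usp changes was not tested. With all 4 libraries, the counts of called markers stand beside 21.5% of all tested genes that fell and 20.5% that rose. Of the neuronal identity genes, 14 pan-neuronal markers were tested, of which 7 fell and 1 rose (median log2 change -0.33), and their summed counts were 187151 and 199650 in the controls and 177142 and 158216 after NMDA. All 10 neural progenitor markers rose (median 0.91, sums of 13615 and 16284 against 24695 and 33186), as did 11 of 12 fibroblast and mesenchyme markers (median 1.13, sums of 119918 and 109009 against 220686 and 296164) and 9 of 10 markers of cycling cells (median 0.90, sums of 5552 and 6352 against 8506 and 11610). Of 7 astrocyte markers tested 5 rose (median 0.71, or 0.29 without NMDA replicate 2 and 1.12 without NMDA replicate 1, sums of 11980 and 13722 against 16221 and 22659), and of 6 oligodendrocyte lineage markers 3 rose and 1 fell (median 0.43, or 0.28 without NMDA replicate 2, sums of 1575 and 1478 against 1858 and 2265). Glutamatergic markers had a median of -0.05 over 6 genes (sums of 4411 and 4470 against 4325 and 3785) and no call. The GABAergic ones had a median of -0.13 over 5, with 1 rise and 1 fall (sums of 9771 and 8274 against 9366 and 6542). Both of these medians turned without NMDA replicate 2, to 0.06 and 0.11, and the single falls among GABAergic and oligodendrocyte markers were lost when either control was left out. The single pan-neuronal rise, Elavl4, singled out after its value was seen, was lost by DESeq2 (0.0658) and when control replicate 1 (limma adjusted p = 0.178), control replicate 2 (0.225) or NMDA replicate 1 (0.0877) was left out. Of 6 microglia markers 1 was tested, Tmem119, and it rose from 123 and 132 to 198 and 211 (limma adjusted p = 0.00647). The others were below the limit for testing, with P2ry12 at 0 in all 4 libraries. Tmem119 thus made up nearly all of the sums of this list (133 and 138 against 209 and 218). Of 6 endothelial markers 5 were tested and 1 rose, with Cldn5 at 0 throughout (sums of 377 and 420 against 496 and 816). The libraries thus held neuronal RNA together with RNA of progenitor and fibroblast genes, and in bulk RNA fewer cells of a type and less RNA per cell cannot be told apart. Without control replicate 1, 4 pan-neuronal markers fell, and 5 progenitor, 6 cycling-cell, 10 fibroblast and 1 astrocyte marker rose. Without control replicate 2, 4 pan-neuronal markers fell and 3 astrocyte markers rose, and without NMDA replicate 2 the astrocyte rises were 3. Tmem119 lost its call (adjusted p = 0.0711) when control replicate 1 was left out, and 3 endothelial markers rose without NMDA replicate 1.

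Of the 7 tested members that act on histones and chromatin, 3 fell and 4 were without a call, with a median log2 change of -0.30. Usp22, the ubiquitin protease of the SAGA coactivator complex, which removes ubiquitin from histone H2B, stood at 19573 and 18824 normalised counts in the control libraries and at 13794 and 12093 after NMDA. Both NMDA libraries were well under the controls, a log2 change of -0.57 ± 0.10 (SE, n = 2 each; limma adjusted p = 0.00371). Usp27x, an X-linked relative of Usp22 that uses the same cofactors outside SAGA, went from 341 and 275 to 179 and 167, a change of -0.82 ± 0.15 (limma adjusted p = 0.00313). Usp16, an H2A deubiquitinase, measured 799 and 872 in controls and 624 and 624 after NMDA (-0.42 ± 0.09, limma adjusted p = 0.00810). Its NMDA libraries were close to each other and clear of the controls. Leaving out control replicate 1 ended all 3 calls (limma adjusted p = 0.0843 for Usp22, 0.0545 for Usp27x and 0.0537 for Usp16), and leaving out control replicate 2 ended those of Usp22 (0.0563) and Usp16 (0.0969).

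The other chromatin enzymes had no call. Usp3, which acts on H2A, read 482 and 515, then 387 and 425 (-0.30 ± 0.11, limma adjusted p = 0.0526), without overlap between the groups and just outside the threshold. Its call appeared without NMDA replicate 2 (adjusted p = 0.0462), under the stricter filter of a mean of 50 (0.0477) and after quantile normalisation (0.0391). Usp49, an H2B deubiquitinase, read 628 and 625 against 514 and 553 (-0.23 ± 0.10, limma adjusted p = 0.0819). Usp21, an H2A deubiquitinase, read 832 and 784 in controls and 848 and 799 after NMDA, with overlapping groups. Usp51, another protease that shares the cofactors of Usp22, was low in all libraries, at 10.8 and 12, then 15.8 and 10.5. Usp44, which acts on H2B and on the mitotic checkpoint, was below the limit for testing, with 0.900 and 0 in controls and 2.63 and 3.15 after NMDA.

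A group of 3 members works with the same activating subunit, the WD-repeat protein Wdr48 (also called UAF1): Usp1 fell, and Usp12 and Usp46 had no call. Usp1, which takes ubiquitin off PCNA and off the Fanconi anaemia protein Fancd2, stood at 1612 and 1744 in the control libraries and at 893 and 970.3 after NMDA. The highest NMDA value was far below the lowest control value, which gave a log2 change of -0.85 ± 0.09 (limma adjusted p = 0.000714). The closely related pair Usp12 and Usp46 differed in sign without a call; Usp46 is known from mouse mutants with altered behaviour. Usp12 read 885 and 956, then 852 and 779 (-0.17 ± 0.09, limma adjusted p = 0.169), and Usp46 read 526 and 572, then 590.0 and 592 (0.11 ± 0.10, limma adjusted p = 0.409). The log2 ratio of Usp1 to Usp12 within a library was 0.86 and 0.87 in controls and 0.07 and 0.32 after NMDA. Wdr48 itself went from 1505 and 1424 to 1227 and 1129.7 (-0.31 ± 0.09, limma adjusted p = 0.0202), and its call ended with quantile normalisation (0.0677) and without control replicate 1 (0.189), control replicate 2 (0.0920) or NMDA replicate 2 (0.0619). Of the substrates of Usp1, Fancd2 rose from 71.8 and 89.8 to 129 and 141 (0.74 ± 0.18, limma adjusted p = 0.0127; 0.120 without control replicate 1 and 0.0514 without NMDA replicate 2), and Pcna, which is also a marker of cycling cells, read 1624 and 1930.4, then 1974 and 2629.7 (0.36 ± 0.14, limma adjusted p = 0.0675). Wdr48, Fancd2 and Pcna are named for their tie to Usp1, after their values were seen.

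Among the 11 members that act on p53, the cell cycle or DNA repair, 6 fell and 5 had no call (median log2 change -0.24). Usp7, also known as HAUSP, which stabilises both p53 and its ligase Mdm2, read 3199.6 and 2954 in controls and 2373 and 2399 after NMDA (-0.37 ± 0.08, limma adjusted p = 0.00844). Usp42, another p53 deubiquitinase, went from 854 and 724 to 527 and 549 (-0.55 ± 0.11, limma adjusted p = 0.00488). Usp29, an imprinted gene next to Peg3, went from 1955 and 1723 to 1439.8 and 1177 (-0.50 ± 0.11, limma adjusted p = 0.00963). As in all 23 members that fell, the NMDA libraries of these 3 genes lay below the controls without overlap (background 37.8%). Usp10, which binds the stress granule protein G3bp1, read 1886 and 1692, then 1479 and 1267 (-0.38 ± 0.10, limma adjusted p = 0.0176). Usp47, a relative of Usp7 that stabilises DNA polymerase beta, read 3848 and 3747, then 2966 and 3076 (-0.33 ± 0.08, limma adjusted p = 0.0111). Usp4, a paralog of Usp15 and Usp11, went from 2393 and 2425 to 2074 and 2004 (-0.24 ± 0.08, limma adjusted p = 0.0366), and only -0.12 after quantile normalisation. Without control replicate 1 the adjusted p was 0.135 for Usp7, 0.0784 for Usp42, 0.120 for Usp29, 0.183 for Usp10, 0.140 for Usp47 and 0.207 for Usp4. Without control replicate 2 it was 0.0527 for Usp7, 0.0590 for Usp10, 0.0925 for Usp47 and 0.219 for Usp4, and without NMDA replicate 2 it was 0.0639 for Usp10 and 0.0727 for Usp4. Quantile normalisation also ended the calls of Usp10 (0.0584) and Usp4 (0.219), and DESeq2 did not call Usp4 (0.0804).

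Usp2 had a positive change without a call. This gene, whose products act on Mdm2, cyclin D1 and the circadian clock, stood at 36.8 and 62.3 normalised counts in controls and 67.6 and 86.0 after NMDA (0.66 ± 0.28, limma adjusted p = 0.0923). Its groups did not overlap, but the upper control was close to the lower NMDA library, and the change was 0.29 without control replicate 1 and 1.03 without control replicate 2. Usp28, which stabilises Myc, read 564 and 535, then 425 and 512 (-0.24 ± 0.12, limma adjusted p = 0.138), with a call and a change of -0.37 without NMDA replicate 2 (0.0381) and a change of -0.10 without NMDA replicate 1 (0.474). Usp11, an X-linked gene whose product binds Brca2, read 4919 and 4234, then 4371 and 3484 (-0.23 ± 0.12, limma adjusted p = 0.173), with overlapping groups. Its change was -0.39 with a call without NMDA replicate 1 (limma adjusted p = 0.0170), but -0.06 without NMDA replicate 2 (0.671) and -0.12 without control replicate 1 (0.664). Usp37, which stabilises cyclin A, read 978 and 954, then 786 and 897 (-0.20 ± 0.10, limma adjusted p = 0.124), and its change was -0.30 without NMDA replicate 2 (0.0437) and -0.11 without NMDA replicate 1 (0.370). Usp45, which acts on the repair nuclease subunit Ercc1, read 321 and 310.1, then 284 and 310.5.

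**Figure D3:**
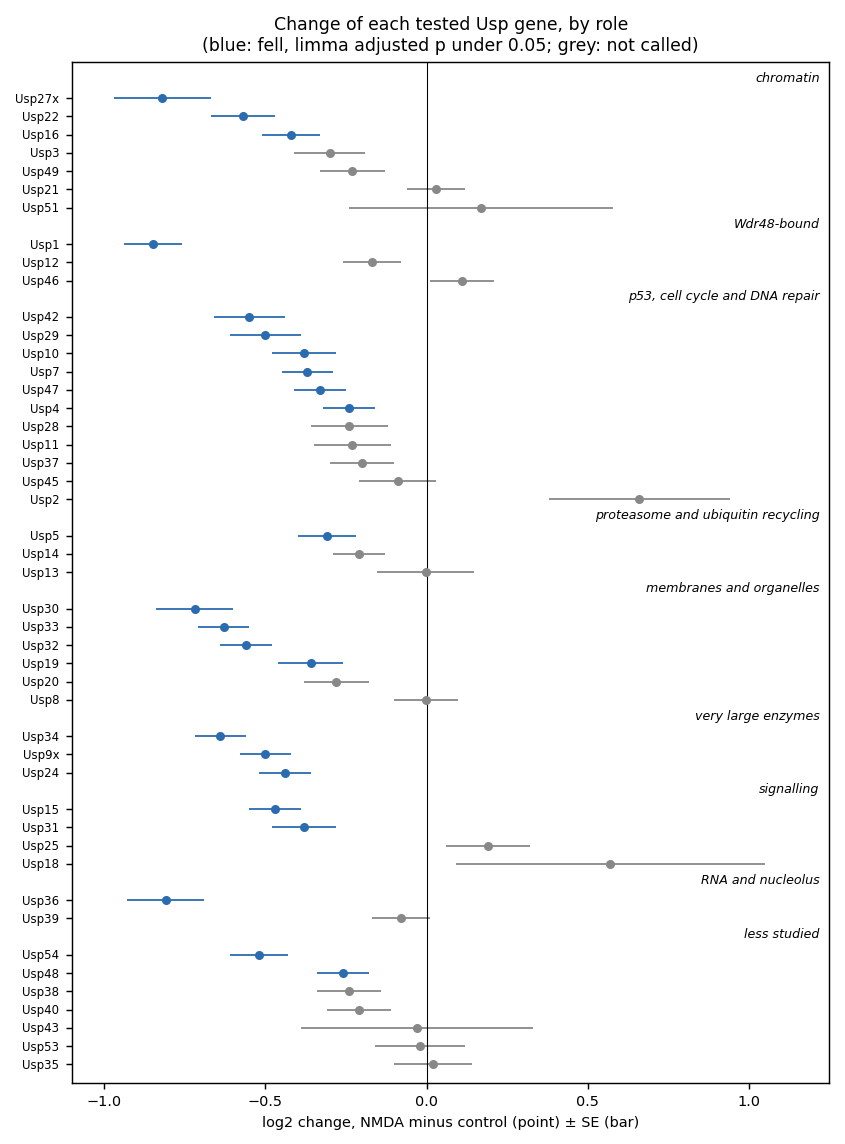
Log2 change of each of the 46 tested Usp genes, NMDA minus control, as a point with its standard error as a bar (n = 2 libraries per group), grouped by role; blue points fell at a limma adjusted p under 0.05 and grey points had no call. The changes run from -0.85 for Usp1 to 0.66 for Usp2, and all 3 tested genes of very large enzymes are blue.

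Among the members tied to membranes and organelles, 4 of 6 fell (median log2 change -0.46). Usp30, which sits in the outer mitochondrial membrane and removes the ubiquitin that Parkin adds to damaged mitochondria, went from 939 and 833 in controls to 599 and 483 after NMDA (-0.72 ± 0.12, limma adjusted p = 0.00287). Park2, the gene of Parkin, went from 283 and 249 to 176 and 124 (-0.84 ± 0.18, limma adjusted p = 0.00731; 0.0852 without control replicate 1). Both genes, with opposed roles, were thus lower in both NMDA libraries than in either control. Usp33, which deubiquitinates the axon guidance receptor Robo1, read 3585 and 3521, then 2339.6 and 2252 (-0.63 ± 0.08, limma adjusted p = 0.000986), with replicates close together in each group. Its paralog Usp20 read 1339 and 1275, then 1168 and 990.2 (-0.28 ± 0.10, limma adjusted p = 0.0521), without overlap and just outside the threshold. Its change was -0.40 without NMDA replicate 1 (0.00894) and -0.16 without NMDA replicate 2 (0.201). Usp32, a membrane-anchored enzyme of the endosomal and Golgi system, read 3233 and 3291, then 2218 and 2207 (-0.56 ± 0.08, limma adjusted p = 0.00130), the NMDA pair lying far below the control pair. Usp19, which is anchored in the endoplasmic reticulum in 1 of its isoforms, read 3211 and 2719.5, then 2283 and 2332 (-0.36 ± 0.10, limma adjusted p = 0.0185); leaving out control replicate 1 ended the call (-0.24, adjusted p = 0.228), as did quantile normalisation (-0.24, 0.0881). Usp8, which acts at endosomes on receptors such as EGFR, read 1259.5 and 1054, then 1157 and 1143 with overlapping groups, and its log2 change of -0.0024 ± 0.10 turned to 0.01 with TMM scaling and 0.07 with quantile normalisation.

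All 3 tested genes of the very large enzymes fell. Each had a mean above 1000 normalised counts, a range in which 18 of 22 members fell (81.8%). Usp9x, an X-linked gene needed for neural development, went from 8376 and 8047 to 5964 and 5685 (-0.50 ± 0.08, limma adjusted p = 0.00279). Usp34, which acts on axin in the Wnt pathway, went from 4324 and 4207 to 2835 and 2624 (-0.64 ± 0.08, limma adjusted p = 0.00107). Usp24 read 2326 and 2274, then 1672 and 1726 (-0.44 ± 0.08, limma adjusted p = 0.00337). In each of the 3 the replicates lay close together and the groups far apart. The calls of Usp9x (0.0695) and Usp24 (0.0638) were lost without control replicate 1. Usp9y, the Y-linked partner of Usp9x, had 0 reads in all 4 libraries, which allows up to 3 reads in each for counting error alone.

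Of 3 enzymes at the proteasome and in the recycling of ubiquitin, 1 fell. Usp5, which takes apart free ubiquitin chains, was that member, with 5504 and 5326 in controls and 4621 and 4133 after NMDA (-0.31 ± 0.09, limma adjusted p = 0.0233). Leaving out control replicate 1 (0.208), control replicate 2 (0.135) or NMDA replicate 2 (0.0540) ended that call. Its paralog Usp13 read 233 and 301, then 272 and 256 with overlapping groups, and its log2 change of -0.0024 ± 0.15 turned to 0.01 by TMM scaling and by edgeR and to 0.00043 by DESeq2. Usp14, the proteasome-bound protease whose loss causes ataxia and synaptic defects in mice, read 3541 and 3796, then 3256 and 3104 (-0.21 ± 0.08, limma adjusted p = 0.0765; 0.0457 without NMDA replicate 1). Its groups did not overlap, but its NMDA libraries lay close under the controls.

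Of 4 members in cytokine and growth factor signalling, 2 fell and 2 had a positive change without a call. Usp15, which acts on the TGF-beta pathway, went from 1546 and 1503 to 1105 and 1088 (-0.47 ± 0.08, limma adjusted p = 0.00272; 0.0529 without control replicate 1). Usp31 went from 1354 and 1284 to 1105 and 922 (-0.38 ± 0.10, limma adjusted p = 0.0187); it lost the call without control replicate 1 (0.159), control replicate 2 (0.0844) or NMDA replicate 2 (-0.25, 0.0649). Usp25, a paralog of Usp28 that acts in cytokine signalling, read 426 and 443, then 441 and 560.1 (0.19 ± 0.13, limma adjusted p = 0.264). Usp18, which removes the ubiquitin-like modifier Isg15 and dampens the interferon receptor through Ifnar2, read 14.4 and 19.2, then 14.9 and 42.0 (0.57 ± 0.48, limma adjusted p = 0.366). In both genes NMDA replicate 2 alone stood above the rest. Without NMDA replicate 1 both were called as rises (Usp18 by 1.29, limma adjusted p = 0.0263, and Usp25 by 0.37, 0.0315), while without NMDA replicate 2 the changes were -0.14 and 0.02. Isg15 was low, at 5.39 and 10.8, then 10.5 and 17.8, and Ifnar2 rose from 183 and 198 to 273 and 322 (0.64 ± 0.14, limma adjusted p = 0.00695; 0.0765 without control replicate 1). Isg15 is named after its values were seen.

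Of a pair of members with roles in RNA processing, 1 fell. Usp36, a nucleolar enzyme needed for ribosome production, went from 1559 and 1269 to 845 and 758 (-0.81 ± 0.12, limma adjusted p = 0.00142), and both of its NMDA values were far under the controls. Usp39, a spliceosome component, read 639 and 638, then 616 and 588 (-0.08 ± 0.09, limma adjusted p = 0.489). Of the 7 tested members with less settled functions, 2 fell. Usp54 went from 914 and 825 to 606 and 604 (-0.52 ± 0.09, limma adjusted p = 0.00355; 0.0662 without control replicate 1). Usp48, which is linked to NF-kappaB and to ubiquitin on histone H2A, went from 2200.4 and 2089.6 to 1777 and 1795 (-0.26 ± 0.08, limma adjusted p = 0.0279), and it lost the call without control replicate 1 (0.242) or control replicate 2 (0.120), with quantile normalisation (0.115) and by DESeq2 (0.0581). Usp38 (493 and 499, then 402 and 437) and Usp40 (594 and 581, then 518 and 495) had log2 changes of -0.24 and -0.21 without a call. The remaining 3 had changes near 0. Usp53, a protein of tight junctions, read 213 and 222, then 199 and 231, Usp43 read 32.3 and 21.6, then 33.4 and 19.9, and Usp35 read 253 and 284, then 262 and 281, with a log2 change of 0.02 ± 0.12 that turned to -0.08 with quantile normalisation. Usp26 and Usp50 were below the limit for testing, at 0 and 1.20 against 0 and 1.05 for Usp26 and 4.49 and 5.99 against 0.880 and 4.20 for Usp50.

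The balance between close relatives within the family was followed as well. The log2 ratio of 2 relatives within a library does not depend on the scaling between libraries, and with 2 libraries against 2 an exact permutation test of such a ratio cannot go below p = 0.333, so the differences were not tested further. Usp33 over Usp20 was 1.42 and 1.46 in controls and 1.00 and 1.18 after NMDA. Usp54 over Usp53 was 2.10 and 1.89, then 1.60 and 1.38, and Usp28 over Usp25 was 0.40 and 0.27, then -0.05 and -0.13. In these 3 pairs, and in each pair below except Usp22 over Usp27x, the ratio was lower in both NMDA libraries than in either control. The order of the genes within a pair was set by hand, and turning a pair round reverses its direction. Nothing is therefore read from the shared direction. For Usp15 over Usp11 the separation was narrow, with -1.67 in control replicate 1 and -1.68 in NMDA replicate 2. How often other pairs of genes separate in this way was not counted. Usp5 over Usp13 was 4.56 and 4.14 in controls and 4.08 and 4.01 after NMDA, Usp12 over Usp46 was 0.75 and 0.74, then 0.53 and 0.40, and Usp36 over Usp42 was 0.87 and 0.81, then 0.68 and 0.47. Usp15 over Usp4 was -0.63 and -0.69, then -0.91 and -0.88, and Usp15 over Usp11 was -1.67 and -1.49, then -1.98 and -1.68. Usp22 over Usp27x was 5.84 and 6.09 in controls and 6.26 and 6.17 after NMDA, so in this pair the lower-count gene had the larger fall. These are ratios of counts that were not scaled for gene length, and only their change between groups carries meaning.

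In the GRCm38.p6 annotation 9 members are overlapped by a measured gene, and reads within the shared stretch cannot be assigned to 1 of the genes, because the labels do not state the strand of the counting. Among members that fell, Usp34 is overlapped by Ahsa2 (487 and 541 in controls and 468 and 554 after NMDA, log2 change -0.01), Usp16 by Cct8 (5624 and 5911, then 5583 and 5762, change -0.02) and Usp32 by 1700125H20Rik (16.2 and 9.58, then 13.2 and 11.5, change -0.02). None of these 3 neighbours passed the test, and each had a log2 change close to 0. The counts of 1700125H20Rik were near the limit for testing, so its change says little. Among members without a call, Usp35 is overlapped by Kctd21, which fell (change -0.78, limma adjusted p = 0.00795), Usp49 by Tomm6, which rose (0.35, 0.0220), and Usp40 by Dgkd, which fell (-0.37, 0.0136). The others were Usp37 with Plcd4 (0.30), Usp14 with Thoc1 (-0.22) and the untested Usp44 with Metap2 (-0.17). These neighbours are named for their position, after their values were seen.

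Deubiquitinases whose symbols did not match the rule for the Usp genes, mostly of the OTU, UCH, Josephin, JAMM, ZUFSP and related classes, moved in both directions. Of 34 tested, 10 fell and 3 rose, with a median log2 change of -0.13, beside backgrounds of 21.5% and 20.5%. The smallest p-values belonged to Vcpip1, which works with the segregase Vcp in Golgi reassembly and went from 1928 and 1760.3 to 1034 and 1030.1 (-0.84 ± 0.09, limma adjusted p = 0.000703), and to the OTU pair Otud7a and Otud7b. Otud7a fell from 485 and 485 to 268 and 202 (-1.06 ± 0.15, limma adjusted p = 0.00130), and Otud7b, which restrains noncanonical NF-kappaB signalling, rose from 242 and 249 to 429 and 536 (0.96 ± 0.13, limma adjusted p = 0.00130). The paralogs thus moved in opposite directions, with no overlap between groups in either. Zufsp, a protease for ubiquitin chains at sites of DNA damage, fell from 159.8 and 170.1 to 93.1 and 79.7 (-0.93 ± 0.16, limma adjusted p = 0.00322). Falls in this list numbered 4 without control replicate 1 and 5 without control replicate 2, and rises numbered 1 and 2. The difference between these deubiquitinases and the Usp genes was not tested.

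On the attaching side of the cycle, the polyubiquitin gene Ubb read 8606 and 9192 in controls and 9732 and 10116 after NMDA without a call, and it is named after its values were seen. Rps27a, which encodes ubiquitin fused to a ribosomal protein, rose from 5719 and 6108 to 7368 and 9569.6 (0.51 ± 0.13, limma adjusted p = 0.0127). Uba6, an E1 for ubiquitin, fell from 723 and 653 to 458 and 453 (-0.59 ± 0.10, limma adjusted p = 0.00265). In both of the called genes the groups did not overlap. Leaving out control replicate 1 ended both calls (adjusted p = 0.141 for Rps27a and 0.0521 for Uba6), and leaving out control replicate 2 ended that of Rps27a (0.0752).

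Of 34 E2 conjugating enzymes tested, 7 rose (background 20.5%) and 4 fell (background 21.5%), with a median of -0.0034. Ube2r2, an E2 of the cullin-RING ligases, rose from 1444 and 1484 to 2267 and 2636 (0.74 ± 0.09, limma adjusted p = 0.00105). Ube2o, a large hybrid of E2 and E3, fell from 4870.3 and 4372 to 3067 and 2718 (-0.68 ± 0.10, limma adjusted p = 0.00143), Ube2ql1 from 5659 and 6353 to 4017 and 3902 (-0.60 ± 0.09, limma adjusted p = 0.00170), and Birc6, a giant inhibitor of apoptosis with an E2 domain, from 3373 and 3209 to 2187 and 2446 (-0.51 ± 0.09, limma adjusted p = 0.00293; 0.0591 without control replicate 1). Rises in this list dropped to 1 without control replicate 1 and to 4 without control replicate 2.

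**Figure D4:**
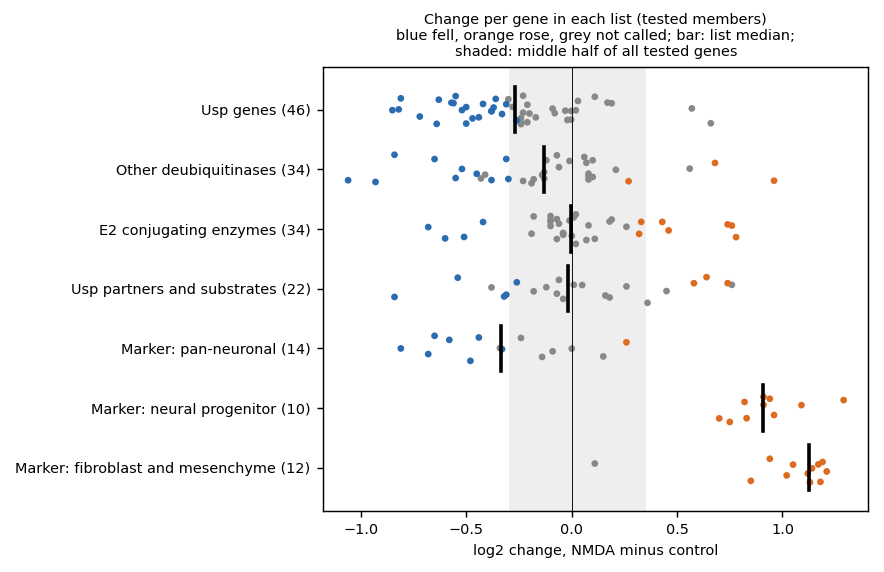
Log2 change, NMDA minus control, of each tested gene (points) in the Usp family, 3 related lists and 3 marker lists, with the list median as a black bar and the range between the quartiles of all tested genes shaded (-0.29 to 0.35); blue fell, orange rose, grey had no call. The Usp genes have a median of -0.27 and no orange point, and the progenitor and fibroblast markers have medians of 0.91 and 1.13.

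Partners and substrates of the Usp enzymes, 22 genes, gave 3 rises (background 20.5%) and 5 falls (background 21.5%), with a median of -0.02. Trp53, the gene of p53, rose from 698 and 698 to 982 and 1115 (0.58 ± 0.10, limma adjusted p = 0.00241). Any tie between this rise and the changes of the Usp genes that act on p53 was not tested. Mdm2, named for its tie to Usp7 after its values were seen, read 1353 and 1280.1, then 1204 and 1331 with overlapping groups. Wdr20a, a homologue of the cofactor of Usp12 and Usp46, fell from 482 and 442 to 332 and 303 (-0.54 ± 0.11, limma adjusted p = 0.00623; 0.0871 without control replicate 1). The SAGA cofactors of Usp22, Atxn7l3 (3241 and 3543 in controls and 3027 and 2945 after NMDA) and Eny2 (956 and 1002, then 1095 and 1096), had no call and are likewise named for their tie to a member. The 5 falls of this list were 3 without control replicate 2 or NMDA replicate 2, and without control replicate 1 none of Wdr20a, Park2, Wdr48, Mdm4 and Vcp kept its call while 1 of the 3 rises, Trp53, did (limma adjusted p = 0.0392). Mdm4 and Vcp are named to complete the 5 falls.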

How the data were processed

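RNA of 4 libraries was analysed, 2 per group. The labels and the submitters' processing notes name TopHat, Bowtie, HTSeq, DESeq and the mm9 build; their versions and roles, the annotation and the strand of the counting are not given in the sources used. The authors deposited a signal per gene and library, the normalised read count. In each library the values were multiples of a fixed step (99.982% to 100.0% within a tolerance of 0.0051), so reads were recovered, 20127348 and 15008112 in the controls and 20149813 and 16833459 after NMDA. Lower depth gives wider counting error. The 3 chromatin tables were not used here, since no link from their regions to genes was at hand, and 0 columns of per-sample values were left unused.

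The test, run where the mean was 10 or more, was limma's with an intensity trend (version 3.58.1 in R 4.3.3). It took log2(value + 1) and the group alone, was 2-sided, and was adjusted by Benjamini-Hochberg over 13888 genes, with a threshold of 0.05. This scale understates the change of low genes. The script was run on simulated data in which far fewer genes changed than were called here. That run is a check of the code and does not speak for the calls. Alternatives were pseudocounts of 0.5 and 5, no filter, a mean of at least 50, quantile normalisation, TMM scaling, the recovered reads in edgeR 4.0.16 and in DESeq2 1.42.0, a replicate block, and each library left out. As separate cultures are not stated, the p-values speak only of the spread between libraries.

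Every Usp gene is accounted for. Of each other list, up to 4 tested members with the smallest p past the threshold are named, and other names carry a remark. The members and lists were chosen with earlier results of these data known. Promoters and overlapping genes came from RefSeq tables of GRCm38.p6, in which all 50 symbols matched; no coordinates of the deposited files were involved. Intervals for reads at 0 cover counting error only. List members without a match in the table were not analysed here. The counts of the ubiquitin and E1 list are not reported here.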

Additional observations from a re-analysis of the deposited data

How the results depend on the processing

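The number of Usp falls was 23 in the fit as reported, by edgeR, with TMM scaling and with pseudocounts of 0.5 and 5, and it was 24 under a filter at a mean of 50, 21 by DESeq2 and 20 with quantile normalisation. With no filter on low values limma called 0 Usp falls (24 at an unadjusted p under 0.05), 0 other deubiquitinases (11 unadjusted) and 0 E2 enzymes (5 unadjusted), and 0 of all genes either way; with genes that had no read in any library left out, an alternative chosen after seeing the data, the counts were 23, 10 and 4 again. Leaving out each library gave 6 to 26 Usp falls and 0 to 2 rises (2 without NMDA replicate 1 and, by limma, 0 without any of the others, with 0 or 1 at an unadjusted p under 0.05), 4 to 14 falls of other deubiquitinases and 3 to 4 of E2 enzymes. The median change of the Usp genes was -0.30 at a mean of at least 50, -0.24 with quantile normalisation and -0.32 to -0.25 with a library left out. The cause of these shifts was not tested.

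The replicate numbers are shared between the groups, but the labels do not say that they pair the samples, and deviations of same-numbered libraries correlated at r = 0.343 over 13888 genes. With the replicate number as a block, limma called 31 falls and 1 rise, Usp2 (adjusted p = 0.00733), and gained Usp3, Usp11, Usp14, Usp20, Usp28, Usp37, Usp38 and Usp49 as falls; other deubiquitinases had 12 falls and E2 enzymes 4.

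Changes near 0 turned sign: Usp8 was 0.07 with quantile normalisation and 0.01 with TMM scaling, Usp13 was 0.01 with TMM scaling and edgeR and 0.00043 with DESeq2, and Usp35 was -0.08 with quantile normalisation. With a library left out the ranges were -0.13 to 0.13 for Usp8, -0.19 to 0.18 for Usp13, -0.14 to 1.29 for Usp18, -0.02 to 0.07 for Usp21, -0.07 to 0.10 for Usp35, -0.39 to 0.33 for Usp43, -0.11 to 0.44 for Usp51 and -0.12 to 0.09 for Usp53. The 4 untested members and Usp18, Usp43 and Usp51 rest on few reads.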
